A study of Mus musculus with 2 samples.

Results

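Heat shock proteins and chaperonins were examined as 1 gene set in the hippocampus of Alzheimer model mice. The set took every gene with a protein-coding transcript whose symbol begins with Hspa, Hspb, Hspd, Hspe, Hsph, Hsp90, Dnaja, Dnajb, Dnajc or Cct2 to Cct8, or is Tcp1. This rule found 83 members among 55450 annotated genes, of which 21901 had a protein-coding transcript. A further 16 genes with matching symbols had no protein-coding transcript and are no members. One of those 16 is Cct6a, which the annotation lists with 7 transcripts of which 0 are classed as coding. Its product is a subunit of the same chaperonin ring as the Cct members, so its values are set beside theirs. By family the members were 28 Dnajc, 13 Dnajb and 4 Dnaja genes, 11 Hsp70 genes, 7 small Hsp genes, 7 subunits of the cytosolic chaperonin, 3 Hsp90 genes, 3 Hsp110 genes, both mitochondrial chaperonins and 2 chaperonin-like genes. The symbols also took in Hspbp1, Hspbap1 and Hspb11, whose products are not chaperones of these families.

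Molecular chaperones bind unfolded or partly folded proteins and keep them from aggregating. Hsp70 proteins cycle between tight and loose binding of a client as they hydrolyse ATP, J proteins of the Dnaj families bring clients and start that hydrolysis, and Hsp110 proteins reset the cycle by exchanging the nucleotide. Hsp90 takes over signalling proteins in late stages of folding, chaperonins enclose actin, tubulin and other clients in a ring, and small Hsps hold unfolded proteins without ATP. In neurons Hspa8 and its J proteins also strip clathrin from vesicles and maintain synaptic vesicle proteins, and chaperones bind misfolded proteins in models of neurodegeneration.

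The data were 2 libraries of total RNA, ribosome-depleted and strand-specific, each made from 300 ng of RNA with ERCC spike-ins. Both came from hippocampal tissue of adult male mice at 8 to 10 months of age, whose strain is labelled 5xFAD/CAST and described as 5xFAD X Cast, the notation of a cross. 5xFAD mice carry human transgenes under the Thy1 promoter, which is active in neurons, and CAST names a wild-derived inbred strain. Both libraries carry the same strain label. Transgene-free mice were not analysed here, so the data hold no contrast of conditions. The labels call the libraries biological replicates 1 and 2 but give both the same donor identifier, so each SD here measures the spread between 2 samples, which may be technical. The gene tables summed to 26128897 and 28689423 expected counts (the authors' estimate of reads per gene), and the members held 183551 and 209404 of them. Levels are given as TPM, a transcript abundance scaled for transcript length and library total, which can be set side by side between genes. In bulk RNA, fewer cells of a type and less RNA per cell cannot be told apart.

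Marker genes of several cell types differed between the libraries. Of the 6 marker genes of hippocampal neurons, 6 were higher in replicate 2 (median log2 ratio 0.28), while 9 of 9 choroid plexus markers (median -2.66) and 8 of 8 striatal markers (median -1.77) were lower there. Hippocampal neuron markers were present in both libraries, with summed levels of 1365 and 1546 TPM, of which Camk2a alone held 1199 and 1342 TPM. The striatal markers summed to 211 and 78.7 TPM. The medians were 33.5 and 43.9 TPM for the hippocampal and 15.2 and 5.515 TPM for the striatal markers.

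The 3' ends of the coding sequences separate the chaperones by compartment. The sets are shown because the Hsp70 and Hsp90 results below cover cytosolic forms and forms of the endoplasmic reticulum. Each line gives the last 30 bases of the coding sequence 5′ to 3′ in transcript sense, with the final 15 bases, stop codon included, in capitals. In cytosolic Hsp70 and Hsp90 the capitals encode the tail that co-chaperones with tetratricopeptide repeats bind, and in Hspa5 and Hsp90b1 they encode the signal that keeps a protein in the endoplasmic reticulum. The sequences were read from the mm10 genome at GENCODE M21 coordinates.
Hspa8, chr9:40805088-40805117, plus strand: tcaggccccaccattGAAGAGGTGGATTAA
Hspa2, chr12:76406406-76406435, plus strand: ggagggcccaccatcGAGGAAGTGGACTAG
Hspa1a, chr17:34970000-34970029, minus strand: tcaggacccaccatcGAGGAGGTGGATTAG
Hspa1b, chr17:34957079-34957108, minus strand: tcaggacccaccatcGAGGAGGTGGATTAG
Hsp90aa1, chr12:110691540-110691569, minus strand: gacacatcacgcatgGAAGAAGTAGACTAA
Hsp90ab1, chr17:45568015-45568044, minus strand: gatgcctcgcgcatgGAAGAGGTGGATTAA
Hspa5, chr2:34776084-34776113, plus strand: gaggatacatcagaaAAAGATGAGTTGTAG
Hsp90b1, chr10:86691102-86691631, minus strand, over 2 exons: aaggaatctacagagAAGGATGAATTGTAA
Hspa1a and Hspa1b have the same letters over this stretch, and the capitals of Hspa8 and Hsp90ab1 are identical to each other.

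Most members were expressed in the hippocampus. At least 1 TPM in both libraries was reached by 69 of the 83 members, or 83.1%, against 60.5% of the 21888 nuclear genes with a protein-coding transcript. At least 10 TPM was reached by 56 members (37.7% of the coding genes), at least 50 TPM by 24 (9.05% of the coding genes) and at least 100 TPM by 9 (3.55% of the coding genes). The median level over all 83 members was 22.3 TPM in replicate 1 and 24.0 TPM in replicate 2, or 23.1 ± 1.20 TPM (SD, n = 2), and that of all nuclear coding genes was 4.40 ± 0.0919 TPM. The members are 0.379% of those genes and held 1.00 ± 0.0207% (SD, n = 2) of their TPM. Hspa8, Hsp90ab1 and Hsp90aa1 alone made up 39.2 ± 0.643% of the members' TPM.

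**Figure D1:**
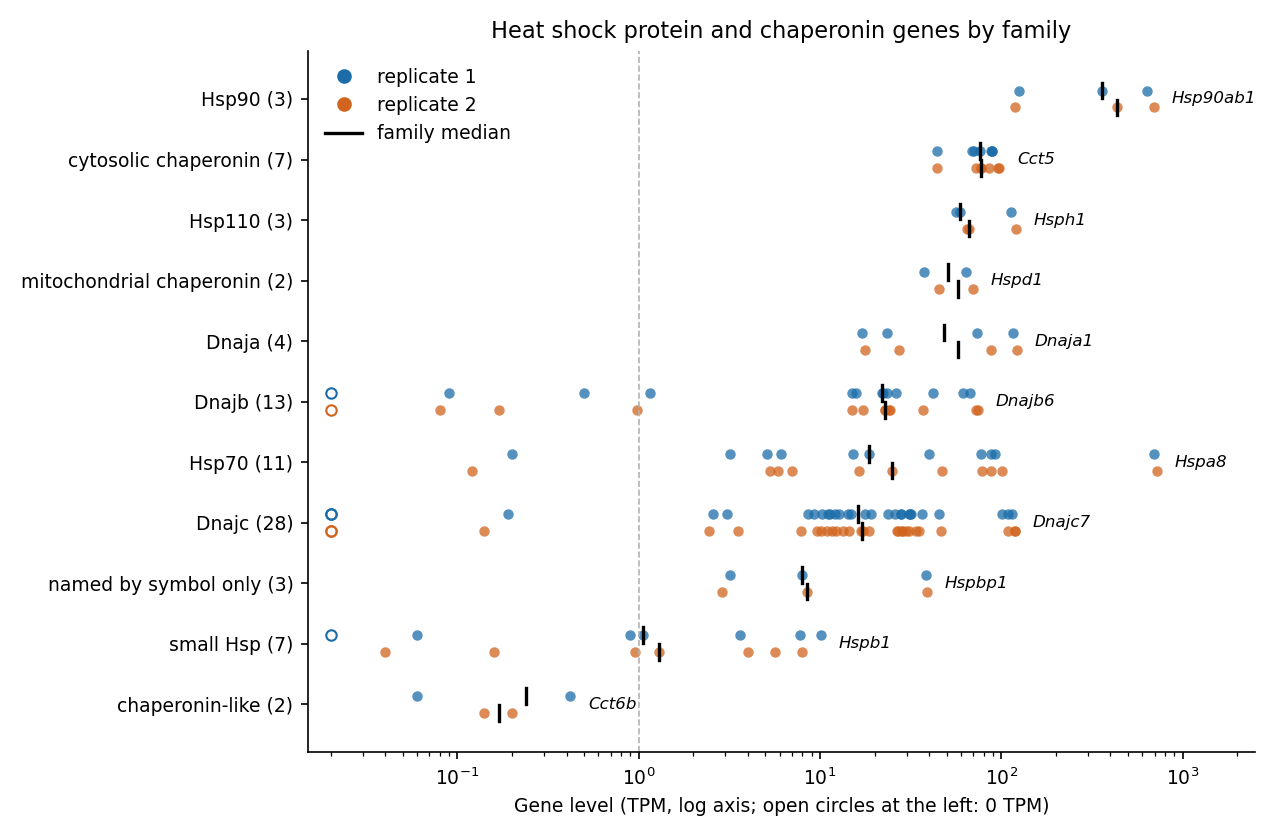
TPM on a log axis for the 83 members by family, with the number of members in brackets; each point is 1 gene in replicate 1 (blue) or replicate 2 (orange), bars mark family medians, open circles mark 0 TPM, the dashed line marks 1 TPM and the highest member of each family is named. The Hsp90 genes have the highest family median (395 TPM), the small Hsp genes have a median of 1.18 TPM, and Hspa8 stands apart from the other Hsp70 genes.

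The cytosolic Hsp90 genes were the highest family per gene. Hsp90ab1, which encodes the constitutive form Hsp90-beta (chr17:45567775-45573271, minus strand), stood at 640.2 TPM in the first library and 699 TPM in the second. Hsp90aa1, the heat-inducible Hsp90-alpha (chr12:110690605-110702728, minus strand), stood at 357 and 432 TPM. Hsp90ab1 was above Hsp90aa1 in both libraries, by 0.84 and 0.69 on the log2 TPM scale, a mean of 1.70-fold, and the ranges of the genes do not overlap. Hsp90b1, the form of the endoplasmic reticulum also called Grp94, stood lower at 125 and 119 TPM. The family's summed level was 26.2 ± 0.741% of the members' TPM (SD, n = 2). In the alignment-free table, which estimates transcript levels without aligning reads to the genome, Hsp90ab1 stood at 710 and 771 TPM and Hsp90aa1 at 429.7 and 558 TPM, which lowered the mean log2 difference from 0.77 to 0.59 without changing its direction.

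Among the Hsp70 genes the constitutive form was far above the heat-inducible forms. Hspa8, the constitutive cytosolic Hsp70 also called Hsc70 (chr9:40800984-40810087, plus strand), stood at 698 and 726 TPM and ranked 30th and 29th among nuclear coding genes. It was above Hsp90ab1 in each library, by 0.13 and 0.06 on the log2 TPM scale, although the ranges of these 2 genes over the libraries overlap. Counting only coding transcripts, the order was reversed in each library, with Hspa8 at 544 and 582 TPM and Hsp90ab1 at 612 and 673 TPM. The stress-inducible genes Hspa1a (chr17:34969190-34972156) and Hspa1b (chr17:34956436-34959238), neighbours on the minus strand, stood at 6.11 and 6.99 TPM and at 5.11 and 5.89 TPM. Hspa8 was above the sum of both by 5.96 and 5.82 on the log2 TPM scale, a mean of 59.2-fold. The coding sequences of Hspa1a and Hspa1b are 99.6% identical, with 8 mismatches, and 82.3% of the 50-base windows of the Hspa1a coding sequence also occur in Hspa1b, so the split of reads between these genes is uncertain and their sum is the firmer value. In coding sequence Hspa1a and Hspa8 are 74.8% identical and share 0 such windows.

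The other Hsp70 genes lay between Hspa8 and the inducible pair, apart from Hspa12b and Hspa1l, which lay below both inducible genes in each library. Hspa12a, a distant relative of the family, stood at 87.9 and 101 TPM. Hspa5, the chaperone BiP of the endoplasmic reticulum, stood at 92.7 and 87.5 TPM, and Hspa9, the mitochondrial mortalin, at 77.5 and 78.0 TPM. The ranges of Hspa5 and Hspa12a overlap, while Hspa9 lay below both in each library. Hspa2, known for its role in male germ cells, was at 40.2 and 46.9 TPM, above the inducible pair in both libraries. Hspa14, whose product works at the ribosome, was at 18.8 and 25.1 TPM, and Hspa13, a form found with the endoplasmic reticulum, at 15.2 and 16.4 TPM. Hspa12b was at 3.18 and 5.28 TPM on 177 and 215 expected counts. Most of that TPM difference lies in 1 short transcript, Hspa12b-202, with 0.28 TPM in the first library and 2.19 TPM in the second. Hspa1l, a testis form next to Hspa1a, had 8.46 and 5.35 expected counts and stood at 0.20 and 0.12 TPM. The median of the 11 Hsp70 genes was 21.9 ± 4.49 TPM (SD, n = 2), close to the median of all members, and 10 of the 11 were detected.

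The level of Hspa8 depends on how reads are shared with its processed copies. The genome holds 13 annotated pseudogenes with at least 85% identity to an Hspa8 coding transcript over at least 200 aligned bases. Together they were given 6748 and 7244 expected counts, which is 23.5% and 22.5% of the counts of Hspa8 and its copies. Nearly all of these fell on Gm15459 (chr5:5781615-5783555, minus strand, a processed pseudogene), with 6376 and 6722 expected counts and 191 and 188 TPM. Gm15459 is 99.7% identical to the 1941 coding bases of Hspa8, and 86.8% of the 50-base windows of that sequence occur in both. The 5 substitutions between them are G114A, C414T, C549T, G1222A and C1440T, where the first letter is the base of Hspa8, the number counts from 1 at the first base of the start codon and the last letter is the base of Gm15459. Of these, 2 are shown with 15 bases on each side and the differing base in capitals, from the mm10 genome in transcript sense.
Hspa8 at G114A, chr9:40802021-40802051, plus strand: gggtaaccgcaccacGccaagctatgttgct
Gm15459 at G114A, chr5:5783427-5783457, minus strand: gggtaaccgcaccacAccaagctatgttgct
Hspa8 at G1222A, chr9:40803826-40803856, plus strand: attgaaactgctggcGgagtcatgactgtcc
Gm15459 at G1222A, chr5:5782319-5782349, minus strand: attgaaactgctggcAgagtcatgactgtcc
Away from such sites a read of the coding sequence cannot be assigned to 1 of these loci by its letters. The alleles of the CAST strain at these positions were not analysed here. With the copies added, the summed level was 900.2 TPM in replicate 1 and 929 TPM in replicate 2, and Hspa8 stood 6.25 above Hspa1a plus Hspa1b on the log2 scale in place of 5.89. The alignment-free table gave the copies 28.7% and 27.7% of the counts, above the alignment-based shares in each library.

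**Figure D2:**
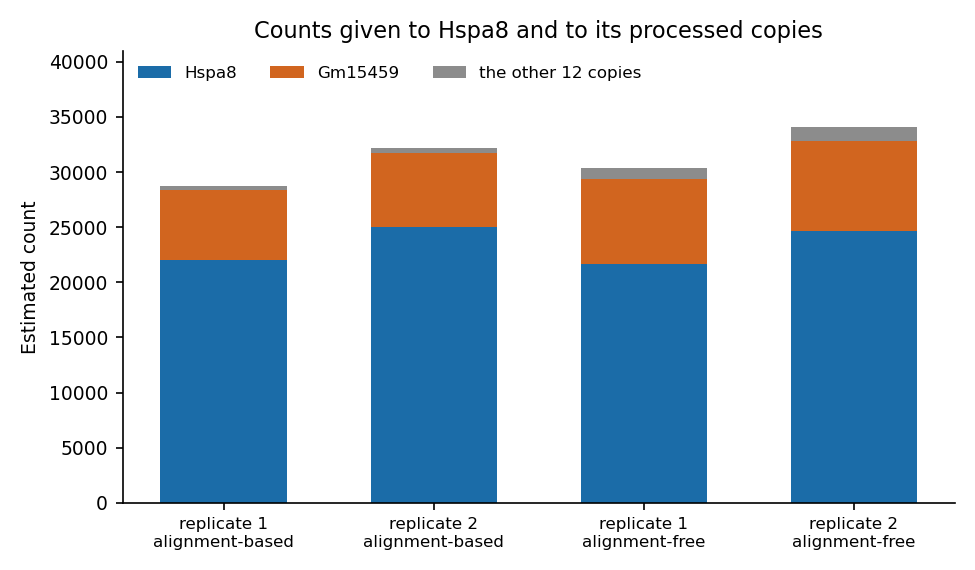
Estimated counts given to Hspa8 (blue), to Gm15459 (orange) and to the other 12 copies (grey) in each library and each table. Gm15459 takes 6376 and 6722 counts in the alignment-based table and 7697 and 8116 in the alignment-free table.

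Copies took fewer counts of the other members. Over the whole set, the same rule gave 81 pseudogenes for 22 members. They held 7756 and 8296 expected counts, most of them on the copies of Hspa8. The rule also takes in short matches. Mdm4-ps, named for another gene, was matched to Dnajb14 over 214 aligned bases of its 6514, with 40.6 and 38.9 expected counts. The 4 copies of Dnaja1 held 11.2% and 9.92% of the counts of that gene and its copies, and 6.08% and 2.48% in the alignment-free table. The single copy of Hspb1 held 5.18% and 17.6%, on 8.03 and 26.4 expected counts. For Hsp90aa1 the share was 2.43% and 1.82%, and for Hsp90ab1 it was 0% in both libraries.

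The Hsp110 genes, nucleotide exchange factors of Hsp70, were all well expressed. Hsph1, which encodes Hsp105, stood at 113 and 120.05 TPM. Hspa4 stood at 59.2 and 66.2 TPM and Hspa4l at 56.3 and 64.8 TPM, 0.07 and 0.03 apart on the log2 scale. Hsph1 lay above both in each library, and Hspa4 and Hspa4l have overlapping ranges.

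The cytosolic chaperonin, also called TRiC or CCT, is a double ring in which each of 8 different subunits occurs in every ring, and it folds actin and tubulin. Tcp1 stood at 89.1 and 85.2 TPM, Cct5 at 88.9 and 97.6 TPM and Cct7 at 87.6 and 95.4 TPM, the highest of the ring in both libraries. Below them lay Cct3 at 76.5 and 76.9 TPM, Cct8 at 69.1 and 77.6 TPM and Cct2 at 70.4 and 72.4 TPM, and the ranges of Cct3 and Cct8 overlap. Cct6a, set beside the members, stood at 66.3 and 71.2 TPM. Cct4 was lowest in both libraries at 44.0 and 44.4 TPM, which is 59.8% and 57.5% of the median of the 8 subunits. The highest subunit exceeded the lowest by 2.03 and 2.20 times, and by 1.34 and 1.37 times once Cct4 is left out. The median of the 7 members was 77.1 ± 0.778 TPM (SD, n = 2).

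The low place of Cct4 was seen in both quantifications, and the order of the others was not. In the alignment-free table Cct4 was again lowest, at 43.4 and 45.7 TPM, or 56.0% and 52.0% of the ring median. Cct3 stood at 55.9 and 54.6 TPM there, 72.1% and 62.2% of the median, where it had been within 5 percentage points of the median in the alignment-based table. Counting only coding transcripts in the alignment-based table, Cct3 stood at 44.0 and 44.8 TPM and Cct4 at 38.3 and 37.6 TPM, while Cct5 stood at 81.9 and 89.3 TPM.

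**Figure D3:**
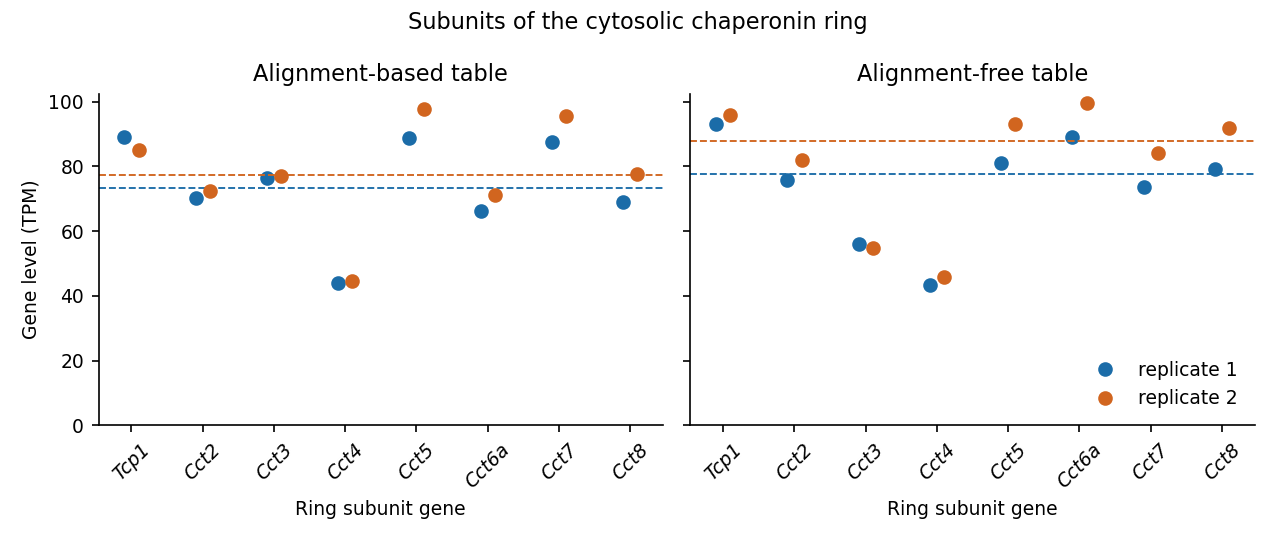
TPM of the 8 ring subunit genes in the alignment-based table (left) and the alignment-free table (right), for replicate 1 (blue) and replicate 2 (orange); dashed lines mark the median of the 8 in each library. Cct4 lies lowest in both panels, and Cct3 lies at 72.1% and 62.2% of the median in the right panel.

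The mitochondrial chaperonin is built from Hspd1, known as Hsp60, and its lid Hspe1, known as Hsp10. The genes stand head to head on chromosome 1 and share a promoter region. Hspd1 stood at 63.7 and 70.1 TPM and Hspe1 at 37.6 and 45.4 TPM. Hspd1 was above Hspe1 by 0.76 and 0.63 on the log2 TPM scale, a mean of 1.62-fold, and the ranges do not overlap. The 10 mitochondrial members, Hspa9 and 7 J proteins among them, had a median of 26.0 ± 1.61 TPM (SD, n = 2).

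Among the J proteins of the Dnaja and Dnajb families, which act on cytosolic Hsp70 in the main, Dnaja1 led at 116 and 123 TPM. Dnaja2, a second general partner of Hspa8, followed at 73.8 and 87.5 TPM. Dnajb6 and Dnajb2, known to suppress the aggregation of polyglutamine proteins, stood at 66.8 and 74.6 TPM and at 42.0 and 37.0 TPM. Dnajb5 stood at 61.5 and 72.2 TPM and the mitochondrial Dnaja3 at 23.3 and 27.4 TPM. Dnajb1, the main heat-inducible J protein and named here after its value was seen, was at 14.96 and 15.02 TPM. All 4 Dnaja genes and 9 of the 13 Dnajb genes were detected, with family medians of 53.0 ± 6.30 and 22.5 ± 0.601 TPM (SD, n = 2).

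The Dnajc family holds J proteins with dedicated tasks, and its leading members in hippocampus were synaptic or bridged Hsp70 and Hsp90. Dnajc7, which binds both Hsp70 and Hsp90, stood at 115 and 119 TPM. Dnajc6 (auxilin), which recruits Hspa8 to clathrin-coated vesicles, stood at 109 and 119 TPM, and Dnajc5, the cysteine string protein of synaptic vesicles, at 101 and 108 TPM. The ranges of Dnajc7 and Dnajc6 overlap, and Dnajc5 lay just below both in each library. Dnajc8, a partner of the splicing machinery, was at 45.5 and 46.5 TPM, and Dnajc27, which joins a small GTPase to a J domain, at 36.4 and 35.3 TPM. The endosomal Dnajc13 was at 31.5 and 30.8 TPM, Dnajc18 at 31.0 and 33.9 TPM, the mitochondrial Dnajc11 at 31.8 and 29.6 TPM, Dnajc10 of the endoplasmic reticulum at 28.1 and 28.4 TPM and Dnajc14 at 28.0 and 28.3 TPM. The family median was 16.7 ± 0.516 TPM (SD, n = 2) with 25 of 28 detected, so the synaptic genes stood well above the typical member. The 9 members of the endoplasmic reticulum had a median of 16.5 ± 0.969 TPM, with Hsp90b1 and Hspa5 far above their J proteins.

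The small Hsp genes were low as a family. Hspb1, which encodes Hsp25, stood at 10.1 and 7.94 TPM, Hspb8, which works with Bag3 in the disposal of aggregates, at 7.76 and 5.62 TPM, and Hspb6 at 3.62 and 4.02 TPM. Hspb2 and Hspb3, known from muscle, stood at 1.06 and 0.95 TPM and at 0.89 and 1.29 TPM, so neither reached 1 TPM in both libraries. Hspb9 was listed at 0 and 0.16 TPM. The 7 genes together made up 0.482 ± 0.0770% of the members' TPM (SD, n = 2). Cryab, alpha-B crystallin, is a small Hsp whose symbol the rule does not take, and it stood at 65.9 and 60.5 TPM, above the sum of the 7 members (23.48 and 20.02 TPM) in each library. Exons of Hspb2 overlap those of Cryab on the opposite strand over 30.2% of their length.

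Several of the 14 members not detected are known from testis or muscle. The chaperonin-like genes Cct6b and Cct8l1 stood at 0.42 and 0.20 TPM and at 0.06 and 0.14 TPM. Dnajb8, Dnajc5b and Dnajc5g had 0 counts in both libraries, named here after their values were seen. A count of 0 allows up to 3 counts, or 0.115 CPM (counts scaled to library total) in replicate 1 and 0.105 CPM in replicate 2, so these genes were under that limit, which covers counting error only.

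Promoter sequences of 68 of the 83 members were found in the RefSeq table (build GRCm38.p6), and Hspa8, Hsp90aa1, Hsp90ab1, Hspa9 and Cct4 are among the 15 without an entry. The heat shock element, to which heat shock factor binds, is built from inverted repeats of a short unit. A window of 250 bases before the start site was searched for a pair of units, GAANNTTC or TTCNNGAA, which cover both strands since each reads the same on either one. Such a pair occurred in 17 of 68 members, or 25%, against 14.5% of 27025 genes with a promoter entry. A gene with more than 1 window counted if any of its windows held a match. In the heat-inducible list it occurred in 8 of 10, all but Dnajb1 and Hspa4l. In the other members it occurred in 9 of 58, or 15.5%. The heat-inducible list was chosen for known heat induction, Hspa1a and Hspa1b have nearly the same promoter, and Hspd1 and Hspe1 share theirs, so these 10 are not separate cases. A run of 3 units, GAANNTTCNNGAA or TTCNNGAANNTTC, which contains the pairs, occurred in Dnajb6, Hspd1 and Hspe1. That is 4.41% of members against 0.514% of all genes with a promoter entry. The windows of Hspd1 and Hspe1 overlap and hold the same run, so 1 site was counted for both genes. A match is a description of the letters and not a bound site.

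The 250-base windows of 3 inducible members that stood at low levels here are shown with matches to the pair in capitals, in transcript sense, from RefSeq.
Hspa1a, chr17:34972157-34972406, minus strand: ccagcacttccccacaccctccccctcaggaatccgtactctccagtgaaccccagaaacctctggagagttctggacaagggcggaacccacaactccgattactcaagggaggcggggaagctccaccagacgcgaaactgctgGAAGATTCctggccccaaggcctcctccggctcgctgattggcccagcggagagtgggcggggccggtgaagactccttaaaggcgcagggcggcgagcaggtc
Hspa1b, chr17:34959239-34959488, minus strand: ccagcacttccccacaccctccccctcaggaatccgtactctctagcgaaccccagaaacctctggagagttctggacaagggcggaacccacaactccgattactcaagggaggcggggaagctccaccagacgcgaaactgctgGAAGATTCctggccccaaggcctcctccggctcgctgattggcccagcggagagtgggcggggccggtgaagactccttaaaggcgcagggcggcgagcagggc
Hspb1, chr5:135887669-135887918, plus strand: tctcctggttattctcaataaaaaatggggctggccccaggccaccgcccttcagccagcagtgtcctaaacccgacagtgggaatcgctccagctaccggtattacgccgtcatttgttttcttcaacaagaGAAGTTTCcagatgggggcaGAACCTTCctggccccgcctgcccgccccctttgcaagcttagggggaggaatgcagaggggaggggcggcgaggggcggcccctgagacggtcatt
The windows of Hspa1a and Hspa1b are 98.8% identical, with 3 mismatches, and hold 1 match each at the same place. The window of Hspb1 holds 2 matches. The heat-inducible list holds 12 genes, one of which is Hspa8, the constitutive form described above. Apart from Hspa8 its levels ran from 5.11 and 5.89 TPM for Hspa1b to 357 and 432 TPM for Hsp90aa1, and the median over all 12 was 51.0 ± 5.74 TPM (SD, n = 2).

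Partners of the members were also expressed. All 18 listed co-chaperones of Hsp90 were detected, with a median of 40.1 ± 1.19 TPM, led by Stip1 (66.4 and 69.1 TPM), which hands clients from Hsp70 to Hsp90, Ppp5c (65.0 and 65.6 TPM), a phosphatase, and Ahsa1 (62.7 and 66.8 TPM), which stimulates the Hsp90 ATPase. Of the nucleotide exchange factors and other Hsp70 cofactors 14 of 14 were detected, with a median of 33.0 ± 2.998 TPM, led by Bag6 (133 and 139 TPM), Sgta (70.4 and 73.7 TPM) and St13 (69.5 and 70.7 TPM). Bag3, an inducible partner of Hspb8 named here after its value was seen, stood at 6.65 and 6.04 TPM, close to Hspb8 itself. Prefoldin, which delivers clients to the chaperonin ring, was listed with other cofactors of the ring and with tubulin cofactors. This list had a median of 28.5 ± 1.71 TPM with 14 of 14 detected. It was led by Pfdn5 (216 and 208 TPM), Pfdn2 (74.3 and 69.2 TPM) and the tubulin cofactor Tbca (56.9 and 72.0 TPM). Among 7 heat shock factors and their partners 4 were detected, led by Hsbp1 (127 and 137 TPM), Hsf1 (31.8 and 31.4 TPM) and Hsf2 (13.1 and 15.2 TPM). Of 13 relatives of the members with other symbols 12 were detected, and after Cryab they were led by Gak (41.0 and 47.1 TPM), a J protein of clathrin uncoating, and Trap1 (31.1 and 32.8 TPM), the mitochondrial Hsp90.

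The libraries were then compared gene by gene, on expected counts scaled by TMM factors, for the 16961 genes with a mean of at least 20 counts, among them 69 members; the other 14 had too few counts. An exact binomial test with Benjamini-Hochberg adjustment asked whether a gene's counts differed beyond counting error; it compares these libraries and not conditions. No member was more than 2-fold apart (0 of 69), against 2% of all genes tested. At so low a share a set of 69 genes would hold few or none. By the exact test 17 members, or 24.6%, had an adjusted p under 0.05, against 18.4% of all genes. They were 15 higher in replicate 2, where 9.21% of all genes were called, and 2 lower, where 9.17% were. With at least 100 counts on average, 18 of 67 members and 21.9% of all genes were called. At that minimum 0 members and 0.634% of all genes were more than 2-fold apart.

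The shifts of the members were small and leaned to replicate 2. Their median log2 ratio of replicate 2 over replicate 1 was 0.06 while that of all genes was -0.00, and 71.0% of the 69 members lay above 0 against 49.7% of all genes. The median size of the log2 ratio was 0.09 in members and 0.12 in all genes. The largest ratio above 0 among called members was that of Hspa14, at 452 and 609 expected counts, with a log2 ratio of 0.30 (exact binomial test, adjusted p = 0.00733), and 7.91% of its exon length overlaps Gm45902 on the same strand. Hspe1 followed at 464 and 598 counts with 0.24 (exact binomial test, adjusted p = 0.046) and Dnaja3 at 1010 and 1287 counts with 0.22 (exact binomial test, adjusted p = 0.00302). The members called lower were Hsp90b1, at 6036 and 6067 counts with a log2 ratio of -0.12, and Dnajc27, at 2983 and 3046 counts with -0.10. Scaling by the ERCC spike-ins moved the median of all genes to 0.27, and with it both of these above 0, to 0.15 and 0.17, still below that median.

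The most abundant members took part with small ratios. Hsp90ab1 (0.10), Hsp90aa1 (0.10) and Hspa8 (0.05) were all called higher in replicate 2, on counts of 15261 or more, where counting error is small. The ratio of Hspa8 also depends on how reads were shared with its copies, which held 23.5% and 22.5% of the joint counts. For Hsp90aa1 the libraries lay further apart in TPM, at 357 and 432, than in scaled counts, and the share of its TPM in coding transcripts was 84.4% in replicate 1 and 75.8% in replicate 2. Among the neuronal J proteins Dnajc6 (0.09) was called and Dnajc5 (0.03) was not. Within the heat-inducible list 5 of 12 genes were called higher and 0 lower, with a median ratio of 0.09, while Hspa1a (0.16) and Hspa1b (0.17) were not called. The 5 include Hspa8 and Hsp90aa1. Of the 9 members of the endoplasmic reticulum 0 were called higher and 1 lower, with a median of 0.00. Over all genes tested 9.21% were called higher and 9.17% lower, which also applies to the marker counts below. Counts per gene differ between the lists and affect which genes are called, so the lists cannot be compared by calls alone. Hippocampal neuron markers were higher in replicate 2 by a median of 0.28 and choroid plexus markers lower by 2.66 on the log2 scale. Immediate early genes, which mark neuronal activity, were called higher in 3 of 6 cases (median 0.18) and 0 were called lower. Markers were called lower in 3 of 5 tested mural cell genes (median -0.40), 3 of 6 endothelial genes (median -0.18) and 3 of 6 microglial genes (median -0.09), with 0 called higher in each. The part of these differences in the members' ratios was not tested.

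**Figure D4:**
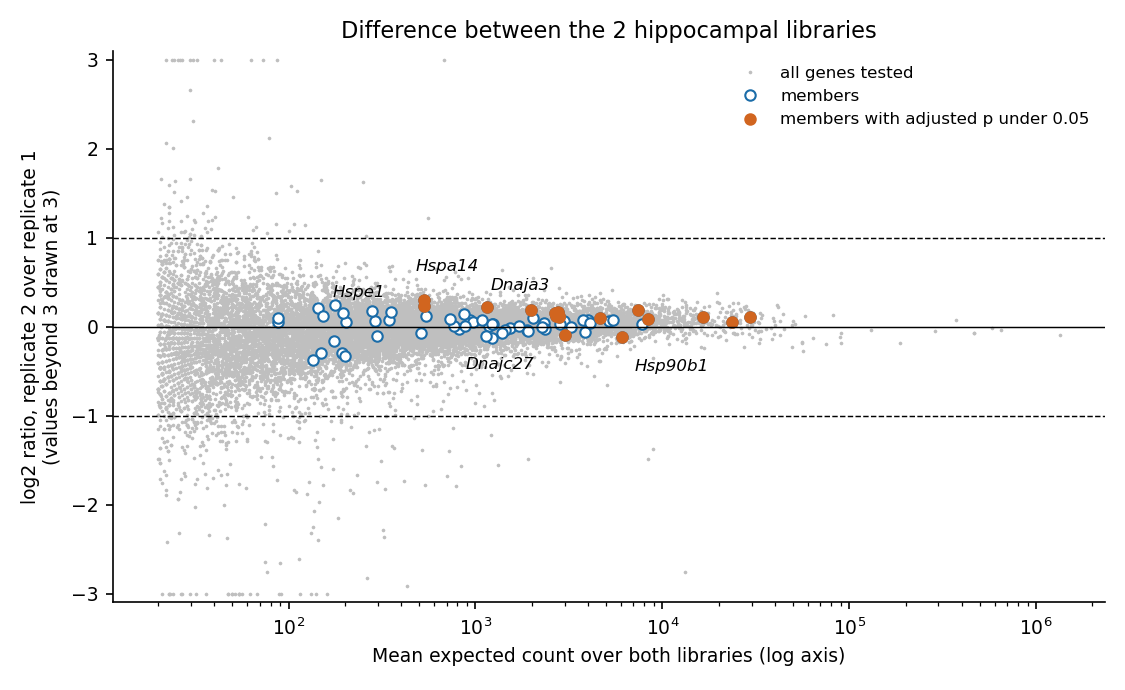
The log2 ratio of replicate 2 over replicate 1 against the mean expected count (log axis) for all 16961 genes tested (grey), the 69 members (open blue) and the 17 members with an adjusted p under 0.05 (orange); dashed lines mark 2-fold. All members lie within the dashed lines, and the named genes have the largest called ratios in each direction, up to 0.30 for Hspa14.

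The alignment-free and alignment-based tables gave the members similar gene counts. Over 12069 nuclear coding genes with at least 100 counts the count of the alignment-free table was by median a multiple of the alignment-based one, 1.15 times in replicate 1 and 1.14 times in replicate 2, and over 67 members 1.12 and 1.13 times. Of these members 0 were more than 1.5-fold from the median of all genes in both libraries, against 0.895% of all genes. The member ratios ran from 0.986 for Hspa8 to 1.52 for Hspbap1.

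Transcripts that do not encode protein held part of the members' RNA. Protein-coding transcripts held 83.5 ± 0.0475% of the members' TPM (SD, n = 2), against 81.8 ± 0.233% for all nuclear coding genes. Retained-intron transcripts held 8.82%, processed transcripts, a class without an annotated reading frame, 5.72% and transcripts marked for nonsense-mediated decay 2.00% of the members' TPM. Among genes with a mean of at least 10 TPM, the median coding share was 88.5% and 90.3% in the 56 members. It was 85.5% and 85.9% in the 8469 nuclear coding genes at that level. Of the 56 members, 26 had more than 90% of their TPM in coding transcripts and 4 had less than 50%. How many of all genes lie beyond these limits was not counted, so the member counts have no background. The 4 were Dnajc15, with 35.4% and 36.2% in the 2 libraries, Dnajc7 with 46.7% and 41.0%, Dnajc19 with 42.7% and 46.5%, and Dnajc24 with 47.9% and 49.4%. Dnajc15 and Dnajc19 encode J proteins of the mitochondrial import motor, and Dnajc24 acts in the modification of elongation factor 2. Next came Dnajc11 (48.5% and 54.8%) and Dnaja2 (59.7% and 54.8%). Dnajc7 thus stood at 53.8 and 48.6 TPM in coding transcripts, where its gene level had been among the highest of the J proteins.

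Transcript shares were less stable between the tables than gene counts. In the alignment-free table the coding share of Dnajc15 was 22.0% and 23.5%. That of Dnajc19 was 49.2% in replicate 1 and 86.4% in replicate 2, so it passed 50% in 1 library alone, and that of Dnajc7 was 55.1% and 49.4%, which passed 50% in the other library. Dnajc24 stood at a mean of 46.5%. Dnajc11, at 42.9% and 44.0%, and Dnaja2, at 43.5% and 41.4%, were under 50% in both libraries of the alignment-free table. The widest gap between the tables among the 56 members was that of Hspa4, whose mean share was 95.2% by alignment and 65.8% without it. Of 66 members with several transcripts, 52 had 1 transcript that led in both libraries whichever table was used. Hspa8 was not among them: Hspa8-202 led it in replicate 1 of the alignment-based table with 294 TPM but had 18.4 TPM in the alignment-free table, where Hspa8-201 led with 336 TPM. In replicate 2 Hspa8-201 led in both tables, with 290 TPM (alignment-based) and 388 TPM (alignment-free). The levels of single Hspa8 transcripts thus depended on the table used.

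**Figure D5:**
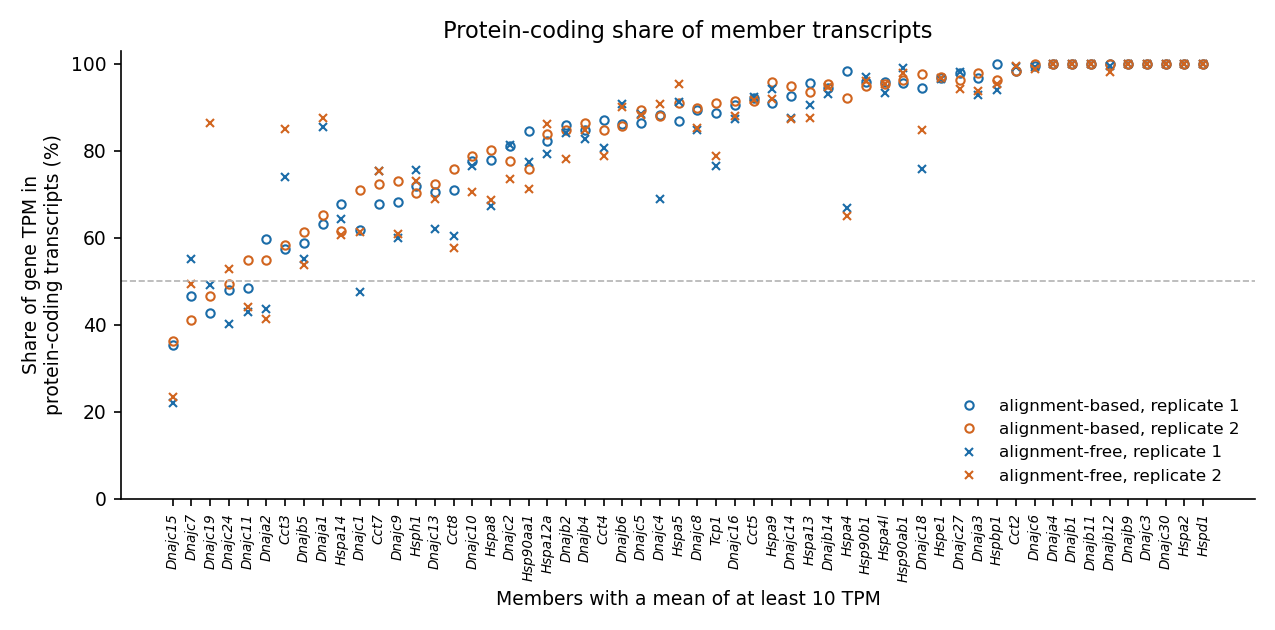
Share of each gene's TPM held by protein-coding transcripts, in percent, for the 56 members with a mean of at least 10 TPM; circles are the alignment-based and crosses the alignment-free table, blue is replicate 1 and orange replicate 2, and the dashed line marks 50%. Dnajc15 is lowest in both tables, and the mean gap between the tables is widest for Hspa4, at 95.2% and 65.8%.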

How the data were processed

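Total RNA of 2 hippocampal libraries of 1 group was analysed, and samples were grouped by the labels. Per the labels, the libraries carry ERCC spike-ins. Which aligner and which quantifiers were run is not given in the sources used here. Per the notes deposited with each library, reads were placed on mm10 with GENCODE M21. Per the file headers, expected counts are estimated reads per gene, which need not be whole, and TPM is scaled to length and depth, with a posterior mean TPM beside it. The authors' deposited percent column gives each transcript's part of its gene, and their coefficient of quartile variation is a fraction. Neither enters a printed value. The authors' alignment-free table holds estimated counts and TPM per transcript, which were summed per gene here.

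All member identifiers matched GENCODE M21. Members and gene lists were chosen with earlier results of these data known. Expected counts were rounded, scaled by TMM (edgeR 4.0.16, R 4.3.3) and compared by an exact two-sided binomial test with a prior count of 0.5 in the ratios and a mean count of at least 20. The procedure was tested on simulated data. Alternatives used DESeq2 1.42.0 size factors, total and spike-in scaling, other count and TPM minimums, posterior mean TPM, the alignment-free table and each library alone. Python 3.11.15, numpy 2.4.6, pandas 2.3.3, scipy 1.17.1 and matplotlib 3.10.9 were used.

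Depth was 26128897 and 28689423 expected counts. The named genes are all Hsp70, Hsp110, Hsp90 and chaperonin members, the 6 highest by TPM of the small Hsp genes and of the Dnaja and Dnajb genes together, the 10 highest Dnajc genes, the 3 per direction with the largest ratio among called members, any member more than 2-fold apart or with an unusual count ratio between tables, the 6 lowest coding shares and the 3 highest genes of each partner list. FPKM columns were not used.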

Additional observations from a re-analysis of the deposited data

How the results depend on the processing

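Under posterior mean TPM the levels and shares of the set stayed within 1 SD of their values, and under other TPM minimums 64 to 72 members were detected. Each library alone, which with 2 libraries lies within 1 SD of their mean by arithmetic and so says nothing of stability, gave 70 to 71 detected members, a median of 22.3 to 24.0 TPM, a TPM share of 0.988 to 1.02%, a ring spread of 2.03 to 2.20 times, log2 differences of 0.69 to 0.84 (Hsp90ab1 over Hsp90aa1), 5.82 to 5.96 (Hspa8 over Hspa1a plus Hspa1b) and 0.63 to 0.76 (Hspd1 over Hspe1), and a coding share of 83.4 to 83.5%. The alignment-free table moved the TPM share to 1.04%, Hsp90ab1 over Hsp90aa1 to 0.59, Hspa8 over Hspa1a plus Hspa1b to 6.18 and the coding share to 80.5%, with no change of direction. Of the TPM levels of the named member genes, 31 moved by more than 1 SD under that table and 22 did not. Chosen after seeing the data, adding its copies to Hspa8 moved that log2 difference over Hspa1a plus Hspa1b to 6.25, and coding transcripts alone moved the ring spread over 7 subunits to 2.26 times. With no count filter 2 members, Cct8l1 and Hspb9, were more than 2-fold apart, on at most 5 counts. Spike-in scaling called 61 members, against 59.2% of all genes, and moved the members' median log2 ratio to 0.32, which is 0.06 above the median of all genes; Hsp90b1 turned to 0.15 and Dnajc27 to 0.17. The cause of these moves was not tested. Of the 17 called members, 15 to 17 stayed called under the other settings. No paired analysis was possible because there is 1 group of 2 libraries. Members under 1 TPM rest on few counts, so their order was not resolved.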
